A study of Mus musculus with 17 samples.

Results

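The G1/S and DNA replication genes described here are 43 genes that carry a cell from late G1 phase into and through S phase. They were taken by symbol from the 24537 genes of each deposited table, and all 43 were found in all 17 tables. The rule used no measured value, but the list was chosen with earlier results of these data known. By role they are 4 origin licensing genes (Orc1, Orc6, Cdc6, Cdt1), 7 genes of the MCM helicase (Mcm2 to Mcm7 and Mcm10), 3 helicase cofactors (Cdc45, Gins1, Gins2) and 5 polymerase and primase genes (Pola1, Pola2, Prim1, Pold1, Pole). A further 4 encode the sliding clamp and its loader (Pcna, Rfc2, Rfc3, Rfc4), 3 act in strand maturation and single-strand binding (Fen1, Lig1, Rpa2), 5 in nucleotide supply (Rrm1, Rrm2, Tyms, Tk1, Dut) and 4 in chromatin replication (Uhrf1, Chaf1a, Chaf1b, Slbp). The last 8 are G1/S regulators (E2f1, E2f2, Ccne1, Ccne2, Ccnd2, Ccnd3, Cdk2, Cdk4).

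A resting T cell that meets its antigen leaves quiescence by raising D-type cyclins, which activate CDK4 and CDK6. These kinases, followed by cyclin E with CDK2, phosphorylate the retinoblastoma family and free the E2F factors, which switch on the replication genes. In G1 the origin recognition complex, CDC6 and CDT1 load the MCM ring on DNA. In S phase CDC45 and GINS join the ring to form the moving helicase, primase and the polymerases copy the strands on the PCNA clamp, and ribonucleotide reductase and thymidylate synthase supply the nucleotides. Lymph nodes are the place where T cells divide after priming, before they leave for the tissue.

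RNA of sorted lymphocytes was sequenced with Smart-seq2, a full-length protocol for few cells, in 17 libraries of 6 groups. The airway group (3 libraries, bronchoalveolar lavage) and the node reporter group (3 libraries, mediastinal lymph node) are Th2 cells of GATIR mice, a Gata3-YFP reporter in which yellow fluorescent protein follows the Th2 regulator Gata3. Titles of the reporter libraries carry the label WT. OTII mice, in which a transgenic receptor makes CD4 T cells specific for ovalbumin, gave Th2 cells of the mediastinal node. These were titled WT (node wild type, 3 libraries) or carried the label OTII_Notch1/2-KO (node knockout-labelled, 4 libraries). All mice that gave airway or node cells had airway inflammation driven by an allergen. The culture groups (2 libraries of each genotype) began as naive spleen T cells of OTII mice and were kept for 7 days on plates coated with anti-CD3/CD28, with IL-4 added and IFN-γ and IL-12/23 blocked by antibodies. The labels used here name antibodies and YFP as the means of sorting, but give no ages, no Cre driver of the knockout and no gate. They do not say whether replicates came from separate animals, so a p-value measures the spread between these libraries, which may in part be technical. Column names of the node OTII tables carry a further number, 1 or 2, that several libraries of a genotype share; its meaning is not stated, and libraries that share it may share a source, in which case n would be 2 in place of 3 and 4.

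Read depth, recovered from the steps of low values, was 16.3 to 27.5 M reads per library. The 7 T cell markers found in the tables were above 0 in every group, with summed levels of 1618 to 4692 scaled RPKM per library. RPKM counts reads per kilobase of transcript relative to the reads of the library, and here it was scaled further by 1 factor per library; all levels below are in this unit. In the node, Notch1 stood at 48.9, 48.5 and 46.2 in wild type and at 10.1, 8.01, 12.6 and 12.9 in knockout-labelled libraries, and it fell (adjusted p = 5.49e-05, limma with Benjamini-Hochberg adjustment). Notch2 went against the label there, at 8.03, 8.08 and 7.53 in wild type and 14.97, 14.1, 17.02 and 18.7 in knockout-labelled libraries, and it rose (adjusted p = 0.000595). In culture Notch1 was 26.3 and 29.4 against 4.23 and 1.06 and did not pass (adjusted p = 0.333), and Notch2 was 7.65 and 7.37 against 7.16 and 6.64. The labels do not say which part of either gene was removed, and a level over a whole transcript cannot check a deletion of part of it.

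E2F sites lie close to the start of many replication genes, so promoter sequence of the members the results turn on is shown first. RefSeq promoters (build GRCm38.p6, the build of the tables' mm10 coordinates) were matched for 36 of the 43 members, and the 250 bases before each start were searched on both strands. The letters searched for E2F were TTTCCCGC, TTTGGCGC, TTTCGCGC and TTTGCCGC, and matches may overlap each other. At least 1 such match was found in 9 of 36 members (25.0%), namely Cdc6, Cdk2, Mcm5, Mcm6, Mcm7, Orc1, Pola1, Rfc3 and Uhrf1. Among all 17564 promoters of the table the share was 2.36%, and among the 8877 whose gene reached 1 scaled RPKM in at least 3 libraries it was 3.65%. The letters CCAAT, which bind the factor NF-Y, were found in 22 of 36 members (61.1%) against 35.9% of all promoters. The letters TTTGAA, the core of the element called CHR of late cell cycle genes, were found in 3 of 36 members (8.33%) against 14.3%. For 21 G2/M genes, which act after S phase, the counts were 1 for E2F (4.76%), 19 for CCAAT (90.5%) and 7 for CHR (33.3%). The E2F letters were found in 4 of the 12 matched members that fell in the airway comparison described further on (33.3%) and in 5 of the 24 that did not pass there (20.8%). A match is a description of letters and not a tested site.

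The Mcm5, Mcm6 and Uhrf1 stretches are shown because all 3 hold E2F letters and all 3 genes fell in the airway, and Rrm2 is shown because it fell in the airway and in the knockout-labelled node without such letters in the window searched. Rfc3 meets the first of these conditions and Pcna the second, and neither stretch is shown. Each stretch ends at the base before the annotated start, outside the gene, and is written 5′ to 3′ on the gene's strand with the E2F matches in capitals. They lie at chr8:75109349-75109508 (Mcm5, plus strand), chr1:128359706-128359825 (Mcm6, minus strand), chr17:56304113-56304312 (Uhrf1, plus strand) and chr12:24708134-24708253 (Rrm2, plus strand).
Mcm5: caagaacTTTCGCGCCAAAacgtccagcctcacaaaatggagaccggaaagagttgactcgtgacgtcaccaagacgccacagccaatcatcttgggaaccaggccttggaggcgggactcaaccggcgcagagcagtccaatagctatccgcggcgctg
Mcm6: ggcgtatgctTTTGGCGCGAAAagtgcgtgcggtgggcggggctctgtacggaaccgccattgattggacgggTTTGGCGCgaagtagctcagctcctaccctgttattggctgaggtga
Uhrf1: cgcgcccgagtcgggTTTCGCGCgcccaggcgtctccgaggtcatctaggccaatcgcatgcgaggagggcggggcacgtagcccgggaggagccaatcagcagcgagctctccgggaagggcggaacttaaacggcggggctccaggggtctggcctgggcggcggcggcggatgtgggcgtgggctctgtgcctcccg
Rrm2: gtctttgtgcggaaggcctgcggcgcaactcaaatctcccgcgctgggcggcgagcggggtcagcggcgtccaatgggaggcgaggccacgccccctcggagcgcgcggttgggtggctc
The capitals in Mcm5 are 2 overlapping matches on opposite strands. Those in Mcm6 are 3 matches, of which the first and second overlap. Uhrf1 has 1 match. The genes themselves lie at chr8:75109509-75128439 (Mcm5), chr1:128331575-128359705 (Mcm6), chr17:56304313-56323486 (Uhrf1) and chr12:24708254-24714146 (Rrm2). Of the other genes the results turn on, Pcna lies at chr2:132249286-132253180, Ccnd2 at chr6:127125709-127151048 and Ccnd3 at chr17:47593467-47599688. Each table lists 1 transcript per gene with its length.

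Levels of the 43 genes, per transcript length, spanned a wide range. Averaged over the 17 libraries, the highest were Cdk4 (165), Mcm6 (163), Ccnd3 (156), Rrm2 (132), Mcm3 (107) and Pcna (104), and the lowest were Orc1 (5.68) and Ccne2 (5.53). The order differed by group: the highest means were those of Ccnd3 (163) and Ccnd2 (123) in the airway, Ccnd3 (218) and Mcm6 (197) in the node reporter group, and Cdk4 and Mcm6 in both OTII node groups. The lowest was Pole (3.14) in the node reporter group. The median of the 43 genes was 12.0 to 19.6 in the airway libraries, 34.4 to 48.9 in the node reporter, 44.3 to 49.1 in node wild type and 40.9 to 50.9 in node knockout-labelled libraries. In culture it was 54.4 and 54.6 in wild type and 51.8 and 58.9 in knockout-labelled libraries. The airway libraries were lowest by this median and did not overlap any other group. The spread between replicates also differed by group. The median coefficient of variation over the 43 genes was 59.5% in the airway, 19.1% in the node reporter group and 6.82% to 11.7% in the OTII groups. Single libraries stood at an edge of their group in many members. Replicate 4 was the lowest of the node knockout-labelled libraries for 35 of the 43 genes, replicate 2 was the highest of node wild type for 34, and replicate 1 was the lower of the culture knockout-labelled pair for 41.

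**Figure D1:**
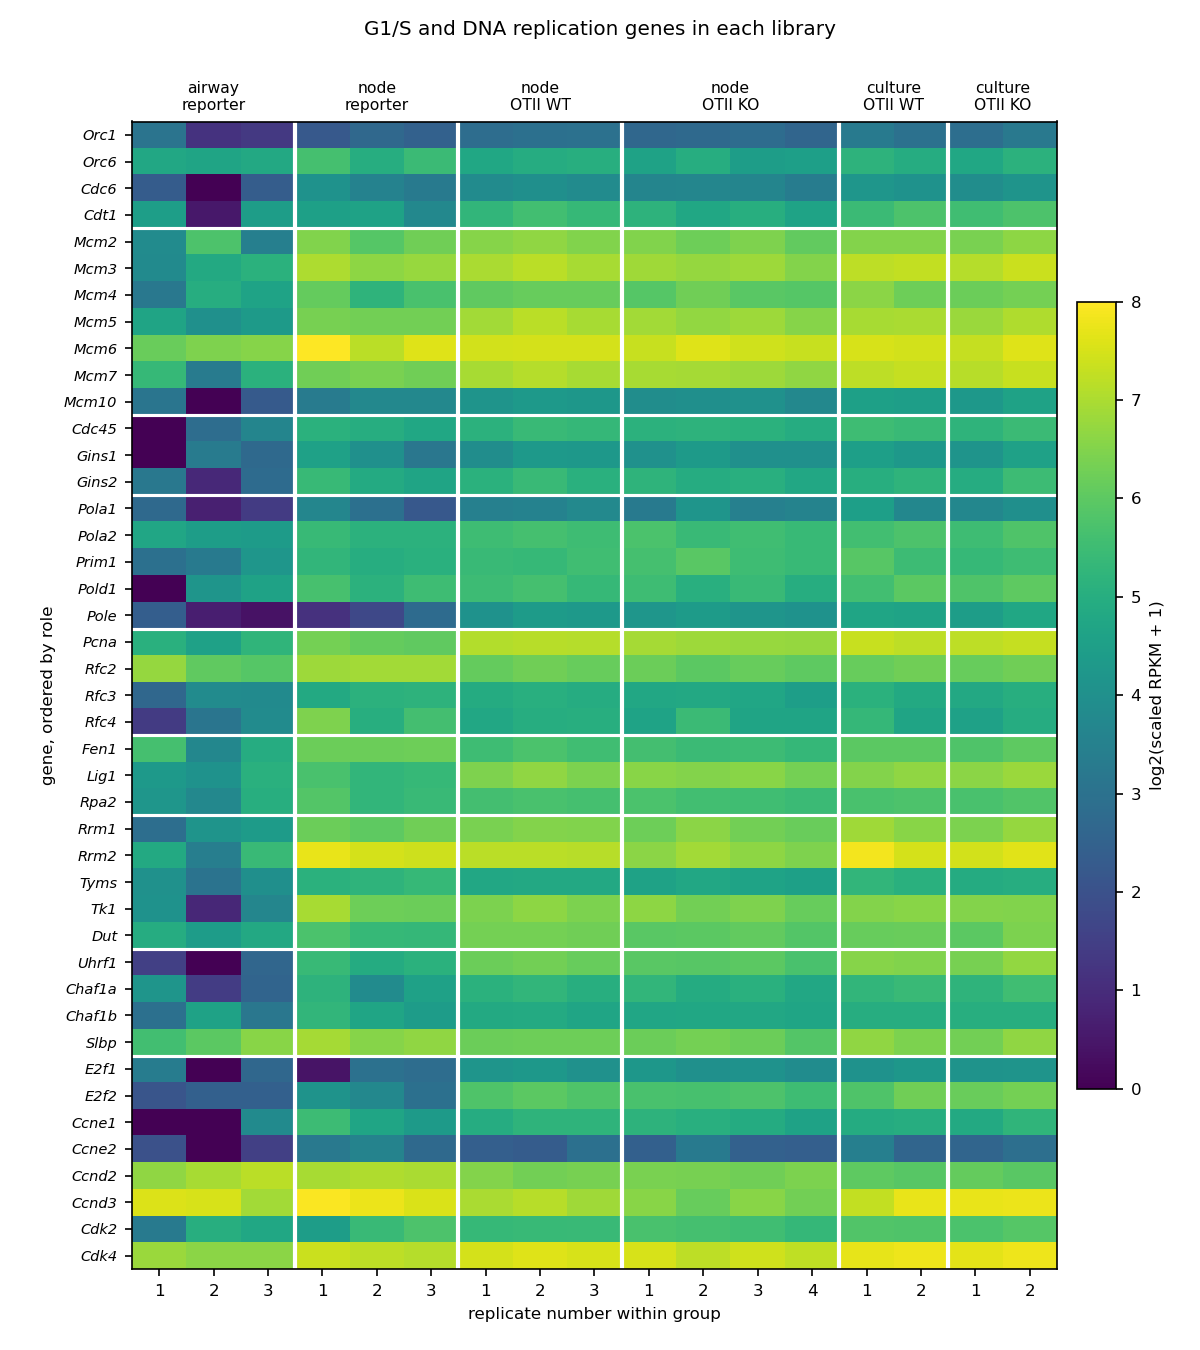
Heat map of the 43 genes (rows, by role, with white lines between roles) in the 17 libraries (columns, by group), coloured by log2(scaled RPKM + 1). The 3 airway columns are darker than all others for most genes, and the cyclin genes Ccnd2 and Ccnd3 are bright in every group.

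In the MCM ring, whose 6 subunits are needed in equal number, Mcm6 had the highest level of the 6 in all 17 libraries. The ratio of the highest to the lowest subunit was 2.00 to 2.43 in culture, 2.57 to 2.79 in the OTII node and 3.68 to 3.97 in the node reporter libraries. In the airway it was 8.71, 9.74 and 9.33, with another subunit lowest in each library (Mcm4, Mcm7 and Mcm2). The D-type cyclins, which start the G1 kinases, also changed rank. Ccnd3 over Ccnd2 was 2.40 and 3.55 in culture wild type and 3.13 and 3.56 in culture knockout-labelled libraries. It was 1.39, 1.81 and 1.43 in node wild type and 1.13, 0.847, 1.25 and 0.906 in node knockout-labelled libraries, so that Ccnd2 passed Ccnd3 in 2 of the latter. In reporter mice it was 2.03, 1.66 and 1.503 in the node and 1.89, 1.48 and 0.809 in the airway, where Ccnd2 passed Ccnd3 in replicate 3.

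**Figure D2:**
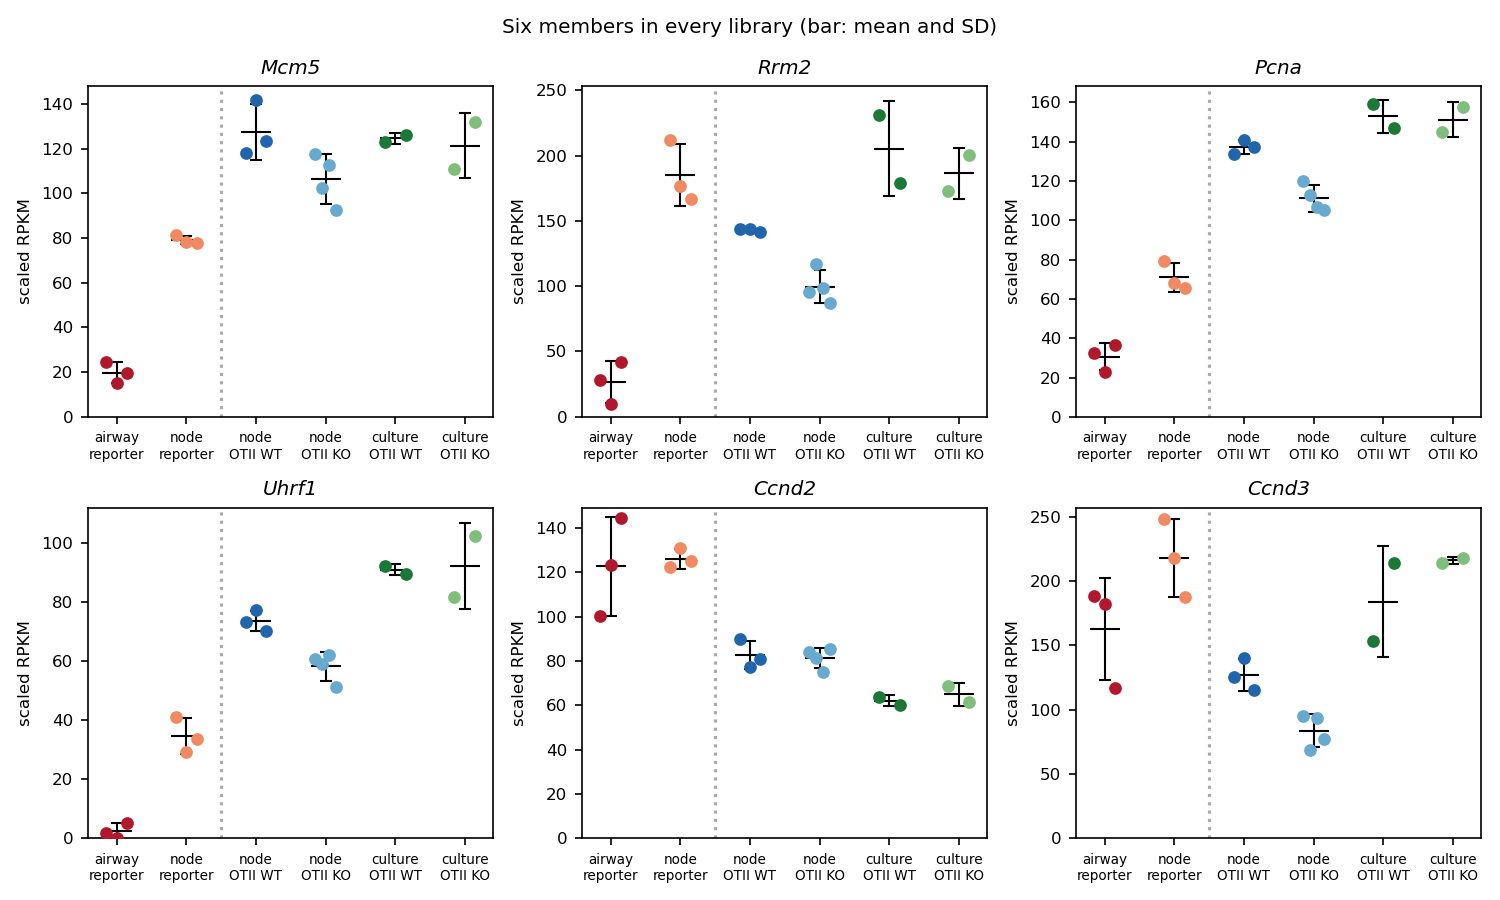
Scaled RPKM of 6 genes in every library (points) with the mean and SD of each group (bars). A dotted line separates reporter from OTII mice, which were not tested against each other. Rrm2, Pcna, Mcm5 and Uhrf1 are lowest in the airway, and Ccnd3 is lowest in the knockout-labelled node.

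The first comparison asked how airway Th2 cells differ from Th2 cells of the node that drains the lung, within reporter mice. Of the 43 members, 13 fell in the airway, none rose and 30 did not pass. For comparison, 2.30% of the 10111 genes tested were called lower, 2.97% higher and 5.27% in either direction. All 43 log2 fold changes were below 0, as were 54.4% of all genes tested. The median was -1.45 for the members and -0.07 for all genes. The count below 0 was 42 without airway replicate 1, 41 without airway replicate 2 and 42 without node replicate 2 or 3. E2f1 had a negative log2 fold change although its mean was higher in the airway (4.89) than in the node (4.53). In 31 members all 3 airway libraries lay below all 3 node libraries, which held for 13.8% of genes tested. The test was limma on log2(scaled RPKM + 1), with p adjusted by Benjamini-Hochberg over all genes, and fold changes on this scale understate the change of low genes. In sequenced bulk cells, fewer cells in S phase and less RNA of these genes per cell cannot be told apart.

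Nucleotide supply had the most members that fell, 4 of 5. Rrm2, the regulated subunit of ribonucleotide reductase, was 28.2, 9.78 and 41.8 in the airway and 212, 176 and 166 in the node libraries (log2 fold change -2.96, SE 0.44, adjusted p = 0.00770). The mean was 6.95-fold lower, and the groups were far apart. Rrm1, its partner subunit, was 6.47, 16.7 and 19.9 against 73.0, 63.0 and 76.3 (log2 fold change -2.35, adjusted p = 0.0106). Tk1, which salvages thymidine, was 15.8, 0.858 and 11.6 against 122, 73.9 and 72.5 (log2 fold change -3.59, adjusted p = 0.0251), with airway replicate 2 near 0. Tyms, thymidylate synthase, was 15.5, 7.28 and 14.96 against 33.5, 36.0 and 40.3 (log2 fold change -1.53, adjusted p = 0.0350). Dut, which keeps uracil out of DNA, was 29.9, 20.5 and 27.7 against 52.7, 39.9 and 39.4 and did not pass (adjusted p = 0.145).

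Of the MCM genes 3 of 7 fell. Mcm5 was 24.6, 15.2 and 19.6 in the airway and 81.3, 78.3 and 77.6 in the node and had the smallest p of all 43 (log2 fold change -1.97, SE 0.24, adjusted p = 0.00344). Mcm3 was 13.2, 28.3 and 33.5 against 127, 97.8 and 109 (log2 fold change -2.20, adjusted p = 0.00804). Mcm6 was 70.8, 87.2 and 92.8 against 252, 144 and 196 (log2 fold change -1.20, adjusted p = 0.0180). Mcm6 thus had the smallest fold change of the ring, in which the other subunits ran from -2.20 to -1.41. Mcm7 had 39.9, 8.95 and 33.4 against 76.6, 82.6 and 76.3 and was among the nearest outside the threshold (adjusted p = 0.0769). Mcm2 (-1.84), Mcm4 (-1.41) and Mcm10 (-1.80), an initiation factor, did not pass either, although no library of one group overlapped the other for any of the 7.

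Clamp and loader genes fell in 3 of 4 cases. Pcna, the sliding clamp, was 32.6, 22.9 and 36.3 against 79.4, 68.1 and 65.4 (log2 fold change -1.21, adjusted p = 0.0219). Rfc4 was 1.61, 7.58 and 13.4 against 86.3, 31.1 and 48.3 (log2 fold change -2.92, adjusted p = 0.0310) and Rfc3 was 5.38, 13.6 and 13.3 against 27.9, 34.4 and 35.2 (log2 fold change -1.60, adjusted p = 0.0485). These 2 subunits of the clamp loader stood below the node in every airway library. The loader subunit Rfc2 was 106, 65.5 and 58.1 against 112, 117 and 117 and did not pass (adjusted p = 0.171).

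Chromatin and fork genes held the deepest fall. Uhrf1, which carries DNA methylation through replication, was 1.88, 0 and 5.25 in the airway and 41.2, 29.1 and 33.6 in the node (log2 fold change -3.75, SE 0.64, adjusted p = 0.0123). Gins2, of the GINS complex, was 8.26, 0.905 and 5.88 against 41.4, 28.7 and 24.6 (log2 fold change -2.68, adjusted p = 0.0340). Prim1, the catalytic primase subunit, was 6.74, 8.81 and 17.3 against 37.7, 30.8 and 33.0 (log2 fold change -1.64, adjusted p = 0.0380). Other members had low means in the airway with replicates that disagreed. Cdc45 was 0, 6.20 and 11.5 in the airway against 33.5, 30.5 and 26.1 (adjusted p = 0.0918), Pold1, the catalytic subunit of polymerase delta, was 0.0163, 16.9 and 23.4 against 50.4, 34.2 and 44.5 (adjusted p = 0.210), and neither passed. Members without a single read numbered 3, 6 and 0 in airway replicates 1, 2 and 3, and 0 in each of the other 14 libraries. Among all 24537 genes, those at 0 numbered 14256, 14385 and 12317 in the same airway libraries. They numbered 12982, 12177 and 12470 in node reporter replicates 1, 2 and 3, and 9432 to 10128 in the OTII libraries. The part of this difference between libraries in the low airway values was not tested. Cdt1 shows how uneven the airway libraries were, with 21.2, 0.428 and 21.1 there and 22.1, 23.6 and 12.4 in the node (adjusted p = 0.563).

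The remaining members of these roles did not pass, as log2 fold changes Gins1 (-1.89), Pola1 (-1.32), Pola2 (-0.70), Pole (-0.73), Chaf1a (-1.82), Chaf1b (-1.22) and Slbp (-0.66). Slbp binds the stem-loop of histone messages, and Chaf1a and Chaf1b deposit histones behind the fork.

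Origin licensing held no member that passed (2 of 4 at an unadjusted p under 0.05). The share of all genes at an unadjusted p under 0.05 was not counted in any comparison, so such counts have no background. The log2 fold changes were Orc1 (-0.61), Orc6 (-0.60), Cdc6 (-2.08) and Cdt1 (-1.14), with Orc1 and Orc6 as subunits of the origin recognition complex. Strand maturation held none either (3 of 3 at an unadjusted p under 0.05). Fen1 was 48.7, 12.0 and 30.1 against 73.1, 72.4 and 74.8, Lig1, which seals the nicks, was 19.2, 15.9 and 33.0 against 51.6, 37.1 and 39.6, and Rpa2, which coats single strands, was 17.5, 12.4 and 31.4 against 57.2, 37.2 and 41.9. These 3 genes were lower in each airway library than in any node library.

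None of the 8 G1/S regulators passed (4 at an unadjusted p under 0.05). Ccne1, cyclin E1, was 0, 0 and 13.2 against 43.7, 24.8 and 19.6 and had the smallest p of them (log2 fold change -3.57, SE 0.96, adjusted p = 0.0729). Cdk4 was 109.9, 97.0 and 96.6 against 162, 145 and 137 (log2 fold change -0.54, adjusted p = 0.0857), with no overlap. Ccnd3 was 189, 182 and 117 against 248, 218 and 188 (adjusted p = 0.280). Ccnd2 had the smallest difference of all 43 members, at 100.03, 123 and 145 against 122, 131 and 125 (log2 fold change -0.06, with a 95% interval of -0.45 to 0.34). The others were E2f1 (-0.08), E2f2 (-1.27), Ccne2 (-2.02) and Cdk2 (-0.88). As log2 fold changes, the kinase inhibitor genes Cdkn1a (0.71), Cdkn1b (0.15) and Cdkn2c (0.51) did not pass. Neither did Rb1 (0.09) and Rbl1 (-0.26) of the retinoblastoma family, the kinase gene Cdk6 (-0.39) or Myc (-1.20).

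Other cell cycle genes were read from lists by function, beside the 2.30% of all genes called lower and 2.97% called higher. Of 44 further replication genes, 7 fell and none rose, with a median of -0.88. They included the histone chaperones Asf1b (18.4 ± 8.01 in the airway and 97.6 ± 6.68 in the node, adjusted p = 0.00539) and Ssrp1 (46.8 ± 12.3 against 109 ± 16.5, adjusted p = 0.0180). Chtf18, of the alternative clamp loader, was listed at 0 in all 3 airway libraries and was 9.09 ± 3.70 in the node (adjusted p = 0.00945). It passed the filter through the node libraries alone, and its airway values add no spread to the test. Of 25 G2/M genes, 15 fell, none rose and the median was -2.63. Birc5 was 29.6 ± 1.41 against 183 ± 76.8 (adjusted p = 0.00178), Aurkb 8.90 ± 2.60 against 61.6 ± 7.40 (adjusted p = 0.00199) and Cenpa 27.1 ± 5.91 against 107 ± 19.1 (adjusted p = 0.00378). Mki67 (-1.56, adjusted p = 0.121) and Top2a (-3.01, adjusted p = 0.0834) did not pass. Of 18 tested brakes of G1/S, Btg1, an anti-proliferation gene, rose from 40.6 ± 7.28 to 111 ± 2.53 (adjusted p = 0.00609), and E2f8, a repressor E2F, fell from 11.5 ± 5.67 to 0.492 ± 0.853 (adjusted p = 0.0198). The airway mean of E2f8 lay below the filter of 1. Of 10 tested further drivers, Cks1b (adjusted p = 0.0174) and Ccna2 (adjusted p = 0.0313) fell.

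**Figure D3:**
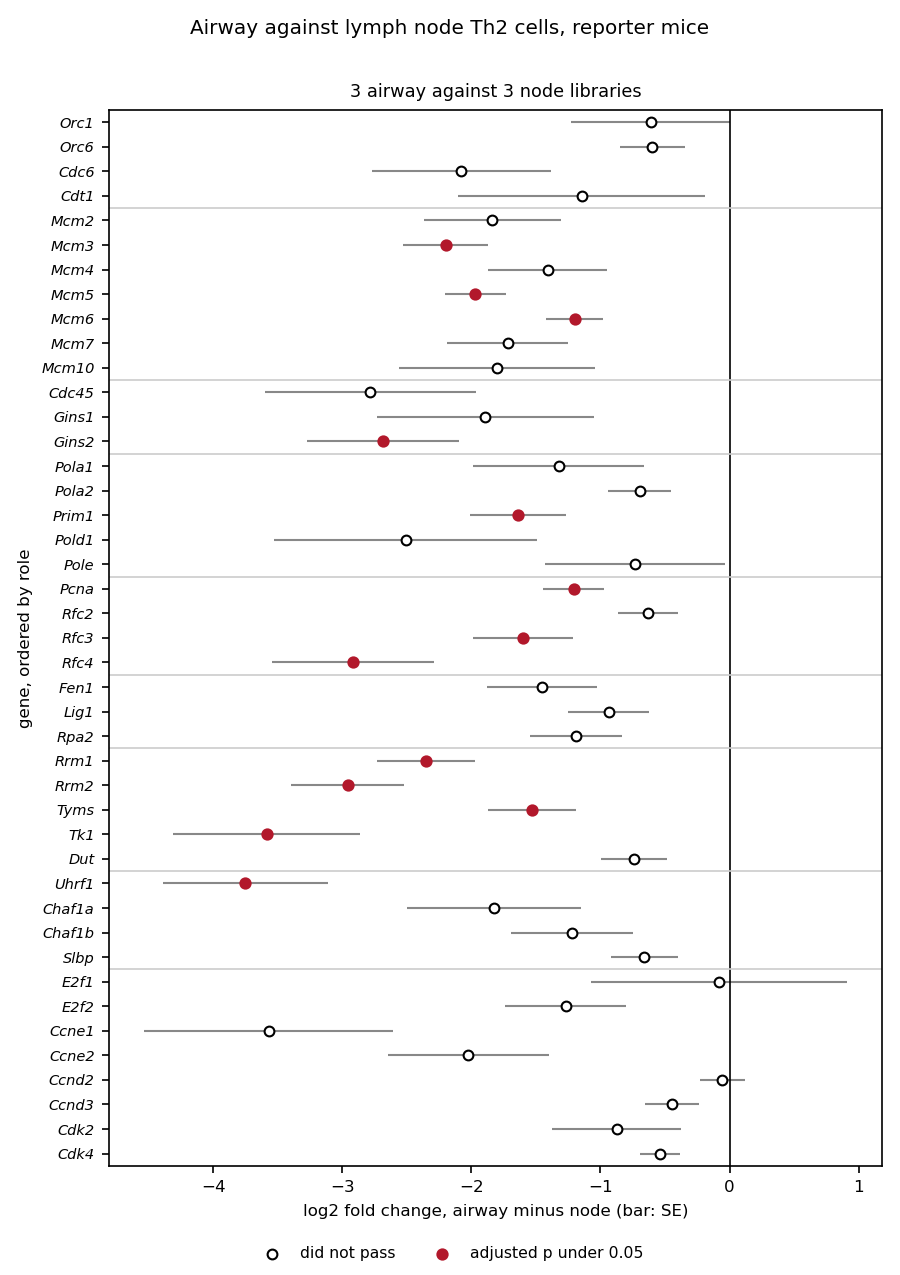
Log2 fold change of each of the 43 genes, airway minus node, in reporter mice (points) with its SE (bars), by role. Filled points passed an adjusted p of 0.05, and all 43 points lie at or left of -0.06.

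Marker levels of other cells differed between these groups too. Of 10 tested macrophage markers 8 were called higher in the airway, beside 2.97% of all genes tested. A marker absent from the node could pass the filter through the airway libraries alone, so this count is a description only. The summed level of all 13 was 3862 to 8316 in the airway. It was 492.8 to 748 in the node reporter libraries, where 6 of 13 were at 0 in all 3. The summed basophil markers were 179 to 319 in the airway against 593 to 915 in the node, with Fcer1a, Ms4a2, Gata2 and Prss34 at 0 in both groups. T cell markers summed to 4177 to 4692 against 3436 to 3750, while their medians overlapped (482 to 555 against 452 to 567) and Cd3e was lower in every airway library (127, 110.2 and 164 against 195, 238 and 203). The part of other cells in the airway result was not tested. The count of 13 became 1, 4 and 2 without node reporter replicate 1, 2 and 3, and 2 without the filter on low values, 5 without a mean trend in the variance and 6 with a pseudocount of 0.1 or with voom on recovered reads. Mcm5 was the 1 gene that passed in all 14 alternative settings.

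The second comparison asked what the Notch1/2 knockout label goes with in node Th2 cells of OTII mice. A few members were lower in the knockout-labelled libraries, by modest amounts. Of 43 members, 6 fell, none rose and 37 did not pass. Of all 10869 genes tested, 7.68% were called lower, 10.4% higher and 18.1% in either direction. Log2 fold changes were below 0 in 39 members, and in 47.0% of all genes tested. The median was -0.17 for the members and 0.02 for all genes. All knockout-labelled libraries lay below all wild type libraries in 16 members, which held for 14.1% of genes tested.

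Ccnd3, which encodes cyclin D3, had the largest difference. It was 125, 139.9 and 116 in node wild type and 95.02, 68.9, 93.7 and 77.3 in node knockout-labelled libraries (log2 fold change -0.60, SE 0.13, adjusted p = 0.0116), 1.52-fold lower by the means. Its relative Ccnd2 was 89.9, 77.5 and 80.9 against 83.8, 81.3, 75.1 and 85.3 (log2 fold change -0.02, 95% interval -0.21 to 0.16), with groups that overlapped. Their partner Cdk4 was 177, 194 and 181 against 180.4, 147, 169 and 151 and did not pass (adjusted p = 0.193). E2f1 (-0.10), E2f2 (-0.20), Ccne1 (-0.18), Ccne2 (0.09) and Cdk2 (0.16) did not pass.

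In nucleotide supply 2 of 5 fell. Rrm2 was 144, 144 and 142 in wild type and 95.8, 117, 98.4 and 87.3 in knockout-labelled libraries (log2 fold change -0.52, SE 0.10, adjusted p = 0.00767) without overlap. The wild type libraries were close together, with a mean of 143 ± 1.26 (SD). Dut was 79.5, 79.6 and 75.5 against 61.1, 61.9, 67.1 and 57.0 (log2 fold change -0.34, adjusted p = 0.0170). Rrm1 (-0.14), Tyms (-0.17) and Tk1 (-0.11) did not pass. Among the other roles Cdt1, which loads MCM and is destroyed in S phase, was 37.1, 46.6 and 40.3 against 34.8, 26.4, 31.3 and 23.8 (log2 fold change -0.50, adjusted p = 0.0339). Pcna was 134, 141 and 137 against 119.8, 113, 107 and 105 (log2 fold change -0.30, adjusted p = 0.0232) and Uhrf1 was 73.0, 77.1 and 70.2 against 60.7, 59.1, 62.1 and 51.1 (log2 fold change -0.33, adjusted p = 0.0291). For all 6 genes that fell, every knockout-labelled library was below every wild type library.

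The MCM helicase as a group held no member that passed (4 of 7 at an unadjusted p under 0.05). Mcm3 was 125, 143 and 124 against 115, 105, 111 and 91.2 (log2 fold change -0.30, adjusted p = 0.0670) and Mcm6 was 176, 179 and 179 against 159.7, 193, 169 and 161 (log2 fold change -0.06). Mcm6 thus had overlapping groups, while Mcm3 did not overlap. The range over the 7 genes was -0.30 to -0.06. Cdc6 (-0.32, adjusted p = 0.0583) and Mcm10 (-0.29, adjusted p = 0.0644) were the nearest outside the threshold. The polymerase and primase genes ran from -0.24 for Pold1 to 0.18 for Prim1, the highest of all 43. Log2 fold changes of the members not yet named were Orc1 (-0.23), Orc6 (-0.27), Cdc45 (-0.21), Gins1 (-0.07), Gins2 (-0.20), Rfc2 (-0.08), Rfc3 (-0.26), Rfc4 (-0.08), Fen1 (-0.13), Lig1 (-0.02), Rpa2 (-0.08), Chaf1a (-0.12), Chaf1b (-0.08) and Slbp (-0.08), none of them called.

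**Figure D4:**
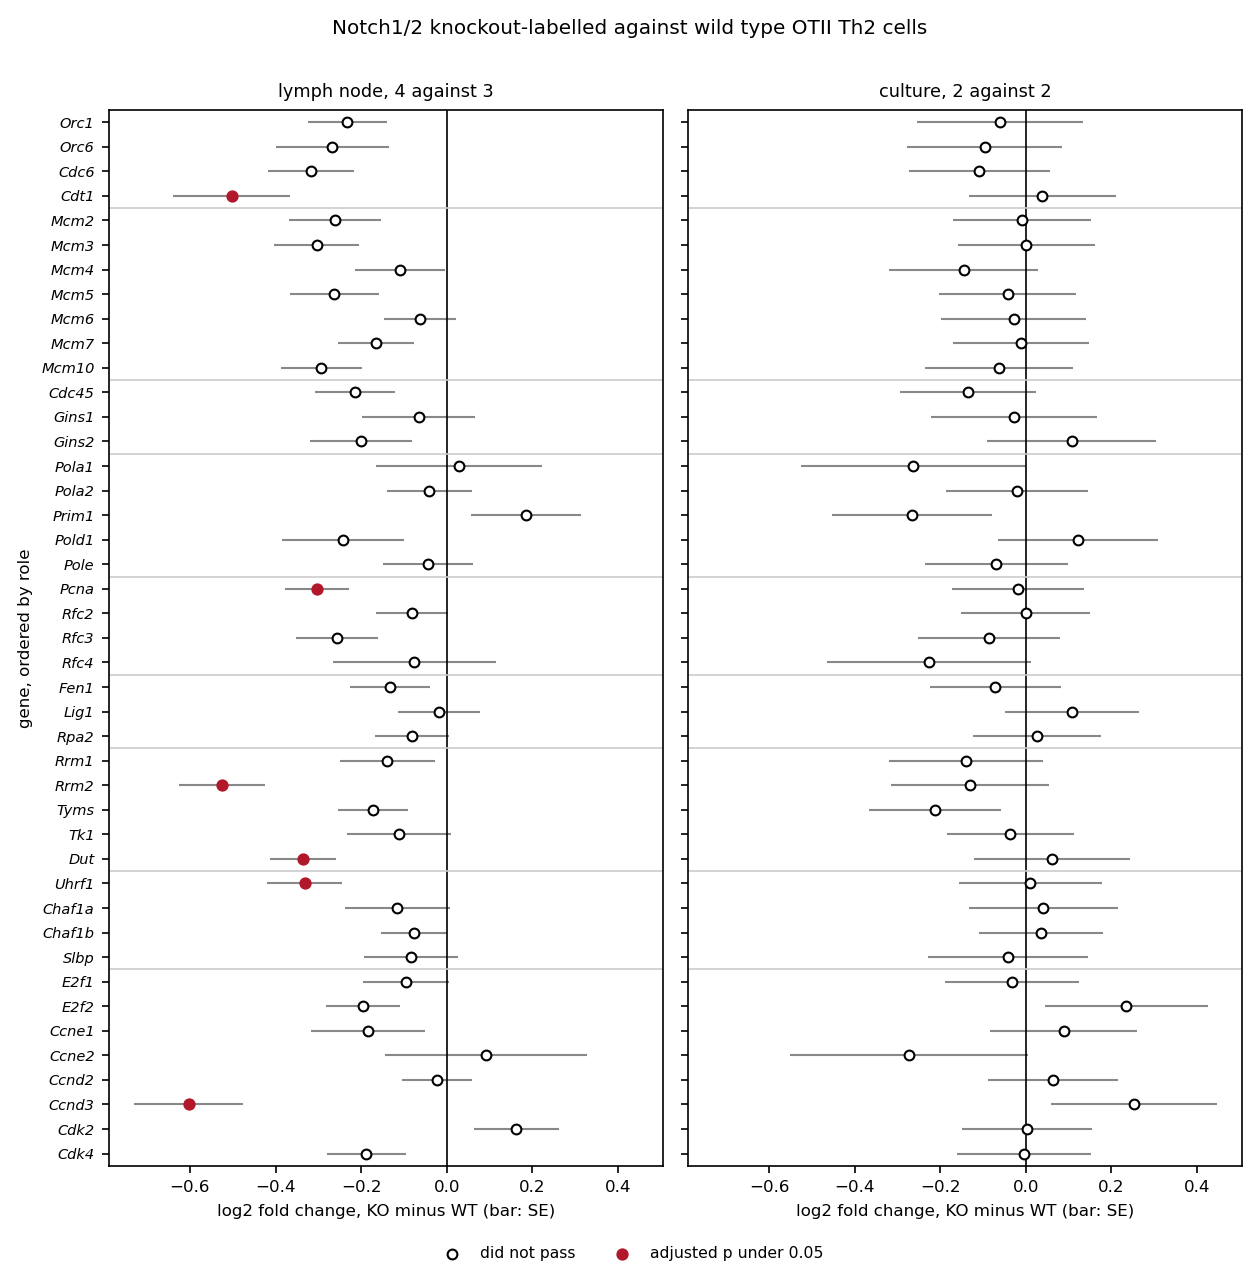
Log2 fold change of each gene, knockout-labelled minus wild type, in the node (left) and in culture (right), with its SE as a bar and filled points for an adjusted p under 0.05. The 6 filled points in the node panel lie between -0.60 and -0.30, and the culture panel has none.

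Of 17 tested brakes and pocket proteins of G1/S 4 fell and 1 rose, where 7.68% of all genes were called lower and 10.4% higher. The pocket protein gene Rbl2, known from quiescent cells, rose: it was 23.3 ± 2.67 in wild type and 42.9 ± 3.67 in knockout-labelled libraries (log2 fold change 0.86, adjusted p = 0.000724). The CDK4/6 inhibitor genes Cdkn2c (from 38.7 ± 3.84 to 26.4 ± 0.577, adjusted p = 0.00314) and Cdkn2d (from 99.0 ± 7.89 to 68.1 ± 6.47, adjusted p = 0.00625) fell, as did Cdkn1b (-0.29, adjusted p = 0.0418). Of 11 tested drivers 3 fell and 1 rose. Myc was 22.2, 31.1 and 34.4 in wild type and 18.1, 14.9, 20.7 and 17.7 in knockout-labelled libraries and fell (log2 fold change -0.67, adjusted p = 0.0186), Myb fell (adjusted p = 0.0141) and Tfdp2, an E2F partner, rose from 4.33 ± 0.348 to 6.97 ± 0.931 (adjusted p = 0.00909). Cdkn1a (-0.01), Rb1 (0.28), Rbl1 (-0.04) and Cdk6 (-0.14) did not pass.

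Further replication genes fell in 6 of 44 cases, with Dctpp1 (adjusted p = 0.0106), a nucleotide pool cleaner, Mtbp (adjusted p = 0.0113), an origin firing factor, and Dck (adjusted p = 0.0149), deoxycytidine kinase, at the smallest p. Of the G2/M genes 3 of 25 fell, Ube2c (adjusted p = 0.0350), Birc5 (adjusted p = 0.0415) and Ccnb1 (adjusted p = 0.0456). For comparison, 7.68% of all genes tested were called lower. Mki67 (-0.14) and Top2a (-0.15) did not pass. Of 4 tested macrophage markers, Ctsd rose from 147 ± 13.5 to 374 ± 59.1 and made up most of the sum of all 13 (147 to 174 in wild type and 311 to 451 in knockout-labelled libraries), Cd68 fell from 3.34 ± 0.895 to 1.22 ± 0.146, and Lyz2 (1.95 and 1.72) and Siglecf (6.38 and 3.53) did not pass; their part was not tested. The count of 6 became 2, 1 and 2 without wild type replicate 1, 2 and 3, and 14 and 2 without knockout-labelled replicate 2 and 4, while Rrm2 passed each time a single library was left out.

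In culture the same contrast gave no call, for the members or for any of the 10968 genes tested (0% called). By limma at an unadjusted p under 0.05 there were also 0 members, and voom on recovered reads called 0 members. Log2 fold changes were below 0 in 28 members and in 49.0% of all genes tested. The pairs did not overlap in 1 member that was lower (Tyms) and 1 that was higher in knockout-labelled cells (Chaf1b), which held for 10.8% and 10.4% of genes tested. With 2 libraries in each group, SEs of the 43 members ran from 0.15 to 0.28 and fold changes from -0.27 for Ccne2 to 0.25 for Ccnd3, with a median of -0.03. Ccnd3 was 153 and 214 in culture wild type and 214 and 218 in culture knockout-labelled libraries (95% interval of the log2 fold change -0.19 to 0.70). Rrm2 was 231 and 179 against 173 and 200.1 (95% interval -0.56 to 0.30) and Pcna 159 and 147 against 145 and 157 (95% interval -0.37 to 0.34). Mcm6 was 182 and 174 against 157 and 195, Mcm3 148 and 152 against 138 and 163 and Cdk4 207 and 222 against 205 and 223. In each of these 6 genes the groups overlapped. The intervals of Rrm2 and Pcna hold the fold changes found in the node (-0.52 and -0.30), and that of Ccnd3 does not (-0.60). This leaves out the error of the node values, and Ccnd3 did not pass in the interaction test described next. Myc (0.33), Cdkn1a (0.02), Cdkn1b (0.21), Cdkn2c (0.05), Rb1 (-0.05), Rbl1 (-0.07), Cdk6 (-0.25), Mki67 (-0.07) and Top2a (-0.05) did not pass.

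Whether the difference between genotypes itself differed between node and culture was tested as an interaction over the 11 OTII libraries. No member passed, and 3.84% of 11508 genes did (2.35% with a higher and 1.49% with a lower value in the node). The largest value was that of Ccnd3 (log2 difference -0.86, SE 0.23, adjusted p = 0.0717, 95% interval -1.37 to -0.34), and 5 members had an unadjusted p under 0.05, while voom on recovered reads called 0. Those 5 were Ccnd3, Dut (-0.40), Cdt1 (-0.54), Pcna (-0.28) and E2f2 (-0.43). The share of all genes at that unadjusted p was not counted, so the 5 have no background. The value was below 0 in 34 members, with a median of -0.13, and in 47.2% of genes tested. Outside the 43, Rbl2 passed (log2 difference 0.87, adjusted p = 0.0169): it was 23.3 and 42.9 in the node and 36.4 and 35.9 in culture, as wild type and knockout-labelled means. Myc (-0.99, adjusted p = 0.0774) and Cdkn2c (-0.59, adjusted p = 0.0953) did not pass. A lower call appeared for 1 member when culture wild type replicate 2 was left out.

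Node cells were also set against cultured cells of the same genotype. These comparisons share their libraries with the genotype contrasts, so their values are not independent of those. In wild type cells 7 members were lower in the node, 1 was higher and 35 did not pass, where 17.5% of 11108 genes were called lower and 13.5% higher (31.0% in all). Lower calls were thus no more frequent among the members than among all genes, and higher calls were less frequent. All node libraries lay below both culture libraries in 18 members, against 30.8% of genes tested. Log2 fold changes were below 0 in 37 members and in 52.7% of genes tested, with a median of -0.20 for the members.

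Rrm2 was 144, 144 and 142 in node and 231 and 179 in culture wild type (log2 fold change -0.51, adjusted p = 0.0201). Cdk2, the kinase of S phase entry, was 40.3, 40.8 and 41.6 against 55.7 and 54.6 (log2 fold change -0.42, adjusted p = 0.0127). Fen1, which trims Okazaki fragments, was 44.3, 52.8 and 46.1 against 62.1 and 61.9 (adjusted p = 0.0366). All 3 were lower in the node without overlap. Pole, the catalytic subunit of polymerase epsilon, was 15.9, 19.8 and 18.6 against 25.1 and 23.7 (adjusted p = 0.0379). Tyms was 26.8, 27.6 and 27.2 against 37.3 and 32.6 (adjusted p = 0.0411) and Uhrf1 73.0, 77.1 and 70.2 against 92.1 and 89.5 (adjusted p = 0.0473). These, too, had no overlap. The D-type cyclins went opposite ways: Ccnd3 was 125, 139.9 and 116 against 153 and 214 (log2 fold change -0.51, adjusted p = 0.0438) and Ccnd2 was 89.9, 77.5 and 80.9 against 63.8 and 60.3 (log2 fold change 0.41, adjusted p = 0.0238). Ccnd3 was thus lower and Ccnd2 higher in node cells. Mcm6 (95% interval -0.22 to 0.21), Mcm3 (-0.20), Pcna (-0.16) and Cdk4 (-0.22) did not pass. The 7 lower calls became 0, 1 and 0 without node wild type replicate 1, 2 and 3 and 4 without culture replicate 1, and the higher call was lost without node replicate 1 or 3 or culture replicate 2.

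In knockout-labelled cells 13 members were lower in the node, 1 was higher and 29 did not pass, where 15.3% of 11227 genes were called lower and 13.7% higher (29.0% in all). Log2 fold changes were below 0 in 40 members and in 51.7% of genes tested, with a median of -0.26 for the members, and 20 members had all node libraries below both culture libraries, against 25.9% of genes tested. Ccnd3 had the largest difference of any member between OTII groups, with 95.02, 68.9, 93.7 and 77.3 in the node and 214 and 218 in culture (log2 fold change -1.37, SE 0.15, adjusted p = 0.000330). Rrm2 was 95.8, 117, 98.4 and 87.3 against 173 and 200.1 (log2 fold change -0.90, adjusted p = 0.00183). Both were lower by more than the spread of either group, and both passed in all 16 alternative settings. E2f2, an activator E2F, was 50.9, 50.0, 53.1 and 45.1 against 71.7 and 80.0 (log2 fold change -0.60, adjusted p = 0.00421). Cdk4 was 180.4, 147, 169 and 151 against 205 and 223 (log2 fold change -0.40, adjusted p = 0.0350). Ccnd2 was 83.8, 81.3, 75.1 and 85.3 against 68.5 and 61.3 and higher in the node (log2 fold change 0.32, adjusted p = 0.0470).

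Licensing and helicase genes made up 5 of those 13. Cdt1 was 34.8, 26.4, 31.3 and 23.8 against 45.8 and 52.9 (log2 fold change -0.76, adjusted p = 0.00894) and Cdc6, its partner in loading MCM, was 11.5, 11.8, 11.4 and 9.30 against 14.1 and 16.7 (adjusted p = 0.0362). Mcm3 was 115, 105, 111 and 91.2 against 138 and 163 (adjusted p = 0.0193) and Mcm7 was 122, 119.8, 112 and 101 against 139.8 and 160.2 (adjusted p = 0.0354). Each of the 4 was lower in every node library than in either culture library. Mcm10 was 14.3, 14.8, 15.5 and 12.4 against 18.3 and 23.5 (adjusted p = 0.0249), while Mcm6 was 159.7, 193, 169 and 161 against 157 and 195 and did not pass. Of the remaining 4, Uhrf1 was 60.7, 59.1, 62.1 and 51.1 against 81.8 and 102 (log2 fold change -0.65, adjusted p = 0.00698). Pcna was 119.8, 113, 107 and 105 against 145 and 157 (adjusted p = 0.0134). Pold1 was 45.0, 32.1, 41.9 and 30.9 against 54.2 and 63.0 (adjusted p = 0.0235) and Fen1 was 47.8, 43.1, 43.6 and 39.1 against 55.0 and 63.2 (adjusted p = 0.0226). None of these overlapped. The 13 lower calls became 6 without node replicate 4 and 7 and 2 without culture replicate 1 and 2, and the higher call of Ccnd2 was lost without node replicate 1, 3 or 4 or either culture replicate.

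**Figure D5:**
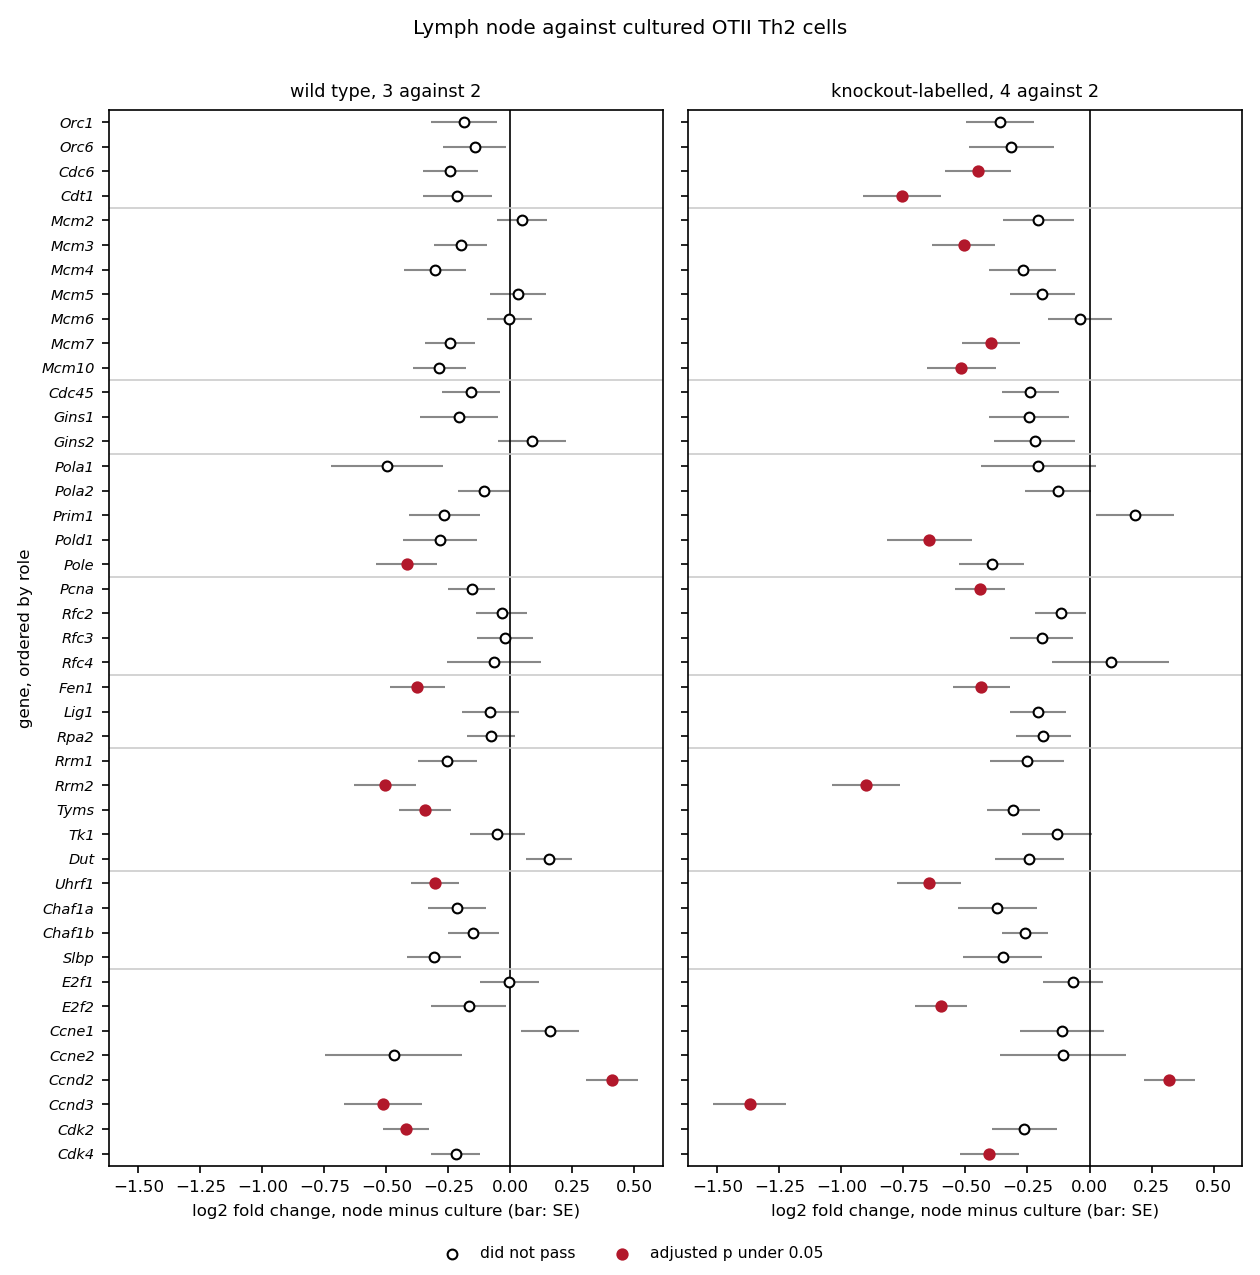
Log2 fold change of each gene, node minus culture, in wild type (left) and knockout-labelled cells (right), with its SE as a bar and filled points for an adjusted p under 0.05. Ccnd2 is the only filled point right of 0 in either panel, and Ccnd3 in the right panel is the point farthest from 0.

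The brake Cdkn1a, the p21 inhibitor gene, had far larger differences here than any member. It was 5.67, 9.38 and 5.07 in node and 44.1 and 48.6 in culture wild type (log2 fold change -2.66, adjusted p = 0.000172), and 7.55, 5.76, 7.495 and 5.17 against 45.5 and 48.6 in knockout-labelled cells (log2 fold change -2.69, adjusted p = 1.98e-05). Cdkn1b, the p27 gene, was lower in the node in both genotypes (-0.53, adjusted p = 0.0170, and -1.03, adjusted p = 0.000495). So were Rbl1 (adjusted p = 0.0150 and 0.0306) and Cdk6 (adjusted p = 0.00212 and 0.0220). Among all genes tested, 17.5% were called lower and 13.5% higher in wild type, and 15.3% and 13.7% in knockout-labelled cells. Of the 18 tested brakes, 7 were lower and 1 higher in wild type, and 8 and 1 in knockout-labelled cells. Ccng2 (adjusted p = 0.00146) was among the lower ones in wild type, and Cdkn2a, at 0.706 ± 0.206 against 3.54 ± 0.00742 in wild type and 0.138 ± 0.123 against 3.28 ± 1.95 in knockout-labelled cells, among the lower ones in both. Cdkn2a passed the filter through the culture libraries alone. Cdkn2c and Rb1 did not pass in either.

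Myc was lower in the knockout-labelled node (-1.42, adjusted p = 0.000163) and did not pass in wild type (-0.43, adjusted p = 0.170). G2/M genes were lower in the node in 17 of 25 cases in wild type and in 18 of 25 in knockout-labelled cells, with none higher and medians of -0.49 and -0.55. Kif23, a motor of late mitosis, was lower in both (-0.82 and -0.90). Top2a was lower in both (adjusted p = 0.00305 and 0.00904), and Mki67 was lower in wild type (adjusted p = 0.0259) and did not pass in knockout-labelled cells (adjusted p = 0.0563). Of the 44 further replication genes 7 were lower and 2 higher in wild type, and 9 were lower and none higher in knockout-labelled cells. Of all genes tested, 17.5% were called lower and 13.5% higher in wild type, and 15.3% and 13.7% in knockout-labelled cells. The lower count of the further replication genes in wild type was thus near the share over all genes. Pole2, a polymerase epsilon subunit, was lower in both (-0.88 and -0.93). T cell markers summed to 2412 to 3165 in the OTII node and 1618 to 1980 in culture, and the part of this difference was not tested.

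Reporter and OTII node libraries come from different mice, and 2 members (Mcm5 and Tk1) stand under another transcript in the 2 kinds of table, so their levels are given side by side with no test. E2f2 was 16.3, 12.3 and 6.79 in node reporter and 54.1, 62.2 and 55.0 in node wild type libraries. Pole was 1.21, 2.34 and 5.88 against 15.9, 19.8 and 18.6, and E2f1 0.348, 6.96 and 6.28 against 16.9, 18.1 and 15.5. In the other direction Rfc2 was 112, 117 and 117 against 67.4, 76.1 and 69.5, Fen1 73.1, 72.4 and 74.8 against 44.3, 52.8 and 46.1 and Ccnd2 122, 131 and 125 against 89.9, 77.5 and 80.9. Rrm2 was also higher in each node reporter library than in any node wild type library, and Pcna lower. Outside the members, Mki67 was 24.3, 14.9 and 14.7 against 117, 136 and 131 and Top2a 72.4, 47.8 and 46.7 against 133, 151 and 149.6. Across all 6 groups, Ccnd2 was highest in the 2 reporter groups, which overlapped each other, followed by the OTII node groups, which overlapped each other, and then culture.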

How the data were processed

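RNA of 17 libraries in 6 groups, mapped from the sample titles, was measured with Smart-seq2. Each deposited table holds RPKM for 24537 genes with a transcript, position and symbol per row, per the file headers. Reads were aligned to mm10 with HISAT2 2.0.4, and HOMER and DESeq2 are also named, per the submitters' processing notes; which step each served is not given in the sources used here. RPKM is not a count, so limma on log values was the main test. A count model planned as an alternative was not run, and voom on recovered reads was added in its place. Low RPKM values were whole multiples of 1 read (all values below 100 reads, tolerance 0.1 read), which gave 16.3 to 27.5 M reads per library and so the precision of low values.

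The authors' RPKM values were divided by 1 factor per library (median of ratios over 6796 genes at 1 RPKM or more in all 17). Reporter and OTII tables list the same transcript for 22893 genes and another for 1644, so tests stayed within each kind. Symbols of 29 genes were spoilt (date-like) and held no member. Genes at 1 or more in as many libraries as the smaller group were tested with limma 3.58.1 (R 4.3.3; moderated, with a mean trend) on log2(scaled RPKM + 1). Tests were two-sided, p-values were adjusted over every gene tested by Benjamini-Hochberg, and the threshold was 0.05; all 43 members passed the filter in each of 6 comparisons. The procedure was tested on simulated data. Alternatives were the RPKM as deposited, a pseudocount of 0.1, a filter at 5 or none, no trend, a replicate block and leaving out each library, and, chosen after seeing the data, voom on recovered reads, node libraries averaged or adjusted by the first number in their column names, a crossed block in culture, and the libraries of the block without it.

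Members, their roles and the other gene lists were chosen with earlier results of these data known. Named were all 43 members, with library values for those past the threshold in a comparison and for the 6 of highest mean. Up to 3 genes of smallest p per list, 9 regulators and proliferation genes fixed by name, and Notch1 and Notch2 were named too; other values were chosen after they were seen.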

Additional observations from a re-analysis of the deposited data

Results flagged for a closer look

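Within the 4 node knockout-labelled libraries, the 1 group large enough for Dixon's criterion, 4 of the 43 members had 1 library far from the rest by it, where chance gives about 1 in 20. Gins1, of the GINS complex, was 19.65 scaled RPKM in replicate 2, against 15.40 in the next highest. Rfc4, a clamp loader subunit, was 42.45 in replicate 2, against 24.38. Ccne2, cyclin E2, was 8.741 in replicate 2, against 4.592. Cdc6, a licensing factor, was 9.299 in replicate 4, against 11.41 in the next lowest. Replicate 2 was thus the high one in 3 of these 4 genes, and replicate 4, the low one for Cdc6, was the lowest of its group in 35 of 43 members.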

How the results depend on the processing

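No member called in a comparison changed sign in any alternative. In the airway, the 13 lower calls became 6 with a pseudocount of 0.1, 6 with voom, 5 without a trend and 2 with no filter, and 1 to 17 when 1 library was left out. In the knockout-labelled node, the 6 lower calls became 9 with RPKM as deposited, 9 with voom and 4 with the column name number as a term, were 6 with libraries sharing that number averaged, and ranged from 1 to 14 when 1 library was left out. In node against culture, the 7 lower calls of wild type became 4 with RPKM as deposited, 3 without a trend and 1 when node libraries sharing a column name number were averaged (range 0 to 10 with 1 library left out), and the higher call became 0 with the averaging (range 0 to 1). In knockout-labelled cells, the 13 lower calls ranged from 2 to 19, and the higher call became 0 with RPKM as deposited, with a filter at 5 and without a trend (range 0 to 1). The interaction gave 0 to 1 lower calls. Over all genes, leaving out 1 library gave 113 to 554 calls in the airway (533 with all), 1008 to 2716 in the knockout-labelled node (1965), 0 to 65 in culture (0), 2194 to 4363 and 1703 to 4235 in node against culture (3448 and 3251), and 195 to 555 for the interaction (442); no filter gave 224 in the airway.

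The main test did not use replicate numbers as pairs. Deviations of same-numbered libraries correlated at 0.005 to 0.027 in the airway comparison, where each library did correlate best with its own number, and at -0.32 to -0.06 in the node. In node against culture they correlated at -0.01 and 0.33 in wild type and at 0.07 and 0.08 in knockout-labelled cells. Deviations of 2 culture libraries are equal and opposite, so these correlations cannot settle whether the numbers mark pairs. With a replicate block the lower member calls in the airway were 10. In the other unequal groups the block can use only libraries whose number occurs in both groups, so the same libraries were also fitted without it. The lower calls with and without the block were 0 and 2 in the knockout-labelled node, 5 and 0 in wild type node against culture (1 and 0 higher calls), and 5 and 2 in knockout-labelled node against culture (0 and 0 higher calls). Calls over all genes with the block were 630 in the knockout-labelled node, 65 in culture and 135 for the interaction. In culture, where the correlation was -0.19, the crossed block gave 8 calls over all genes. The count model planned was not run because the tables hold RPKM. With 2 libraries a group, culture resolved less than the node (median SE of a member 0.17 against 0.10), and airway members varied most (0.47).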

Other observations

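Repair genes that act at replication forks and on recombination in S phase were followed as a separate list of 16. In reporter mice 14 of them were tested between airway and node and 0 passed (limma with Benjamini-Hochberg adjustment), while 9 had an unadjusted p under 0.05, all 14 were below 0 and the median log2 fold change was -1.76. The share of all genes at that unadjusted p was not counted, and 54.4% of all genes tested were below 0. The median level of the 16 was 0.0351 to 3.29 in the airway libraries and 6.38 to 7.65 in the node reporter libraries. Genes this low in the airway could pass the filter through the node alone, so the shared sign is a description only. In OTII node cells 16 were tested between genotypes, and 0 passed or had an unadjusted p under 0.05. Between node and culture, 8 of 16 were lower and 1 was higher in wild type, where 17.5% and 13.5% of all genes were called so. In knockout-labelled cells 5 were lower and 0 higher, where the shares over all genes were 15.3% and 13.7%. Rad54l, a motor of homologous recombination, was 17.5 ± 1.47 in node and 34.3 ± 1.96 in culture wild type (adjusted p = 0.000909) and 15.6 ± 2.09 against 32.8 ± 3.75 in knockout-labelled cells (adjusted p = 0.00116). Brca1 was lower in both as well (adjusted p = 0.00220 and 0.0192). Ung, which removes uracil from DNA, was the 1 higher gene in wild type, at 22.2 ± 2.14 in node and 11.9 ± 0.806 in culture (adjusted p = 0.00191).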
